A study of Caenorhabditis elegans with 2 samples.

Results

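Of the 8702 autosomal peaks in the pooled REC-8 ChIP-seq list, 1046 (12.0%, exact 95% binomial interval 11.3 to 12.7) had their summit in far intergenic DNA. Each such summit lay in no protein-coding gene, over 1000 bp from every protein-coding transcript start, over 300 bp from every protein-coding 3' end and over 250 bp from every tRNA, snoRNA, snRNA and rRNA gene of the Ensembl annotation of WBcel235 (ce11). Place alone chose these peaks, and their signal played no part in the choice. The pooled list held 10019 peaks over the whole genome. Its label reads peaks and background as input for IDR (irreproducible discovery rate), so its entries can include background. All entries are called peaks here, and 17 of the 1046 were on the authors' thresholded list. ChIP-seq was done on whole Caenorhabditis elegans young adult hermaphrodites of strain YL581, collected 50 hours after larvae hatched from bleached eggs had been synchronized by starvation at L1. The animals stably express REC-8 with GFP at its C-terminal end (GFP-FLAG in one label, eGFP in another), and the labels give the antibody both as anti-GFP and as rec-8. There was 1 group of 2 biological replicates, and a control named in the labels is not analysed here. Whole animals hold germline and somatic nuclei, and peaks of different cells cannot be told apart in these lists.

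REC-8 is a meiosis-specific kleisin, the kind of subunit that closes the cohesin ring around sister chromatids. Cohesin holds sister chromatids together and is part of the axis along which meiotic chromosomes pair and recombine. Worm autosomes have gene-rich central parts of low recombination and repeat-rich arms of high recombination. Far intergenic DNA holds pseudogenes, long and short non-coding RNA genes, mobile element remnants and stretches with no annotated gene. RNA polymerase III transcribes tRNA genes from promoter elements inside the gene, called box A and box B, and the factor TFIIIC binds box B.

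The sequences around the strongest far intergenic summits are shown first, because a 9-base match to box B recurred among them. The motif letters GTTCGANNC and GTTCAANNC stand for box B, where N is any base, and either strand counted. They were chosen after the sequences of the strongest peaks had been seen. The first set gives the ce11 plus strand, 100 bases to either side of the summit, at peaks with such a match, 7 of them among the strongest members and the last from the weaker end of the thresholded list. Capitals mark the match, which reads as its reverse complement where box B lies on the minus strand.
chrIV:11026088-11026288: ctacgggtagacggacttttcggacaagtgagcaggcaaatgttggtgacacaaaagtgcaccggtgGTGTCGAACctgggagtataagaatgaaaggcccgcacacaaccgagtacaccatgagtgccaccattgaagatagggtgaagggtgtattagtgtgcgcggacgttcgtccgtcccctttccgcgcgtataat
chrIV:2664951-2665151: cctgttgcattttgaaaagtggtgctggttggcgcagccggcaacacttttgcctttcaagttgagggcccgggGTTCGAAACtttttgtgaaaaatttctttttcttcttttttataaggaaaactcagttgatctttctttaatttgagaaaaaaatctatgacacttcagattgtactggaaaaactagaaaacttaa
chrV:15454428-15454628: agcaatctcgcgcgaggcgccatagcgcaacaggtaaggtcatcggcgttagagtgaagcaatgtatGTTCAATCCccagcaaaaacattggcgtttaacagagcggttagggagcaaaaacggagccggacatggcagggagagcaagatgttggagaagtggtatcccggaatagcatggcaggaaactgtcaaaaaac
chrV:5667429-5667629: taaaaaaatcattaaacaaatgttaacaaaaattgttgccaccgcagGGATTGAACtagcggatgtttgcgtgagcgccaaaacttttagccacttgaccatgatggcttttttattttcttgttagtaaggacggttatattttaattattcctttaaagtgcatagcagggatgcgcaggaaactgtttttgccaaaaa
chrII:769398-769598: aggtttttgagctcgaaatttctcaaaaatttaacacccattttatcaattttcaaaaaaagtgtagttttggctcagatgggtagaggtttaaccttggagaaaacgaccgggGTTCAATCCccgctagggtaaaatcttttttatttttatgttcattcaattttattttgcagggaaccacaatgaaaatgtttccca
chrIII:2030873-2031073: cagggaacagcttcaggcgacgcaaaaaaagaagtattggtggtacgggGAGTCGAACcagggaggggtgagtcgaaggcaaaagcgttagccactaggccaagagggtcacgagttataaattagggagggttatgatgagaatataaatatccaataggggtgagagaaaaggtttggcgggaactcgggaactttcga
chrIII:1744588-1744788: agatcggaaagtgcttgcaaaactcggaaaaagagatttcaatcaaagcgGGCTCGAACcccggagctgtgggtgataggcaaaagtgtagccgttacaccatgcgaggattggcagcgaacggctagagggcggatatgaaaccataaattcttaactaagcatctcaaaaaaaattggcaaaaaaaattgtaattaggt
chrII:1477438-1477638: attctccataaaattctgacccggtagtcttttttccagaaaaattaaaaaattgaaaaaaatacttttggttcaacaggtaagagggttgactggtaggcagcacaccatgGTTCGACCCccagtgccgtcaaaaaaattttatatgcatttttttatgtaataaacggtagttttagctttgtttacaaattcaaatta

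A match in these letters describes the sequence and does not show that TFIIIC binds there. The next windows belong to strong far intergenic peaks with no match. The window of the peak on chromosome V near 265 kb begins and ends with the same 29 bases, and 68.5% of its 36-base words occur at more than 1 place in the nuclear genome.
chrV:265233-265433: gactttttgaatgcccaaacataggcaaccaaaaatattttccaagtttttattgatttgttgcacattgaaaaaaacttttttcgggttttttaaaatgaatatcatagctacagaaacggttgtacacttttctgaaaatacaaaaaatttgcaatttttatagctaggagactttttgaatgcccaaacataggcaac
chrV:3163241-3163441: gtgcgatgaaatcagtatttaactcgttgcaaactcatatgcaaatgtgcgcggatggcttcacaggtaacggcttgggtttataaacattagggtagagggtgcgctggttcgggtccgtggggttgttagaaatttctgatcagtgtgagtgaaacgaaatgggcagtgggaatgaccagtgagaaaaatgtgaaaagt
chrV:14055114-14055314: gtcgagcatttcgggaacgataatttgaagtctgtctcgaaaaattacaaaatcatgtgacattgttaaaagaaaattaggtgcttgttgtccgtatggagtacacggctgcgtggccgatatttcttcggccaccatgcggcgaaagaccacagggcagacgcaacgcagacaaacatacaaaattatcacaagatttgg

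The last set gives the far intergenic windows with the most copies of TTAGGC, the unit of the worm telomere, with each copy in capitals (GCCTAA on the other strand). They held 12, 11 and 11 copies and lay 7.73%, 2.44% and 95.7% of the way along their chromosomes. Their pooled signals were 45.2, 65.9 and 63.8.
chrII:1180461-1180661: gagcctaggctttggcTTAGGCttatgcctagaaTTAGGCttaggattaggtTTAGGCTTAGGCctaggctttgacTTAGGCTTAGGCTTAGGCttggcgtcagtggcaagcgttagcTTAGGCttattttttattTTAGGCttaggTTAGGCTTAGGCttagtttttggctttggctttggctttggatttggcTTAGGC
chrII:373398-373598: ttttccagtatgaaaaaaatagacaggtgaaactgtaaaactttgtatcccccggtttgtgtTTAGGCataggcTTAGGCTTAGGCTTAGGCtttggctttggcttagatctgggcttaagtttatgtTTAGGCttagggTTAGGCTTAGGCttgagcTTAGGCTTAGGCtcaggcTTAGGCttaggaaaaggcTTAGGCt
chrV:20018483-20018683: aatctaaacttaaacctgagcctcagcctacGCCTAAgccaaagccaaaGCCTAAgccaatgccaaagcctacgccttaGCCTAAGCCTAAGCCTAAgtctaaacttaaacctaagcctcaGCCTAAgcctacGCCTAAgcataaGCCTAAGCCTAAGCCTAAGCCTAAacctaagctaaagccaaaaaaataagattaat

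Far intergenic DNA held fewer peaks for its length than the rest of the autosomes. Bases at which a summit would meet the rule made up 17.2 Mb, or 20.9% of the autosomal bases, against 12.0% of the autosomal peaks. The ratio of these shares was 0.576. With each replicate's own list it was 0.669 in replicate 1 and 0.651 in replicate 2 (mean 0.660 ± 0.0125, SD, n = 2), so that far intergenic DNA was below its share of bases in both. Per megabase there were 60.8 far intergenic peaks, against 79.5 in gene bodies, 124.8 within 1000 bp of protein-coding starts, 174 within 300 bp of 3' ends and 1035 within 250 bp of short RNA genes. All autosomes together had 105 peaks per megabase. No test was made between these classes, since the study has 1 group and neighbouring peaks are not independent. The exact binomial intervals here and below cover counting error only, and the depth of the libraries is unknown from peak lists.

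The signal value used here is the authors' peak score from the deposited lists, which ranks peaks within a list. Among the far intergenic peaks it ran from 39.95 to 226 with a median of 46.5, and the middle 50% lay between 42.6 and 52.9. The other autosomal peaks had a median of 48.97, so the ratio of medians was 0.951. The lowest signal of any autosomal peak was 39.94, so both medians lie not far above a shared floor. This limits how far their ratio can depart from 1. In the replicates' own lists the same ratio was 0.959 and 0.942 (mean 0.9504 ± 0.0123, SD, n = 2). Gene-body peaks had a median of 46.5, peaks at starts 49.1, peaks at 3' ends 50.4 and peaks at short RNA genes 92.3. The upper end differed more than the middle. In all, 32 far intergenic peaks (3.06%) exceeded the 90th percentile of all autosomal peaks, a signal of 78.7, and 2 exceeded the 99th percentile, a signal of 179.

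**Figure D1:**
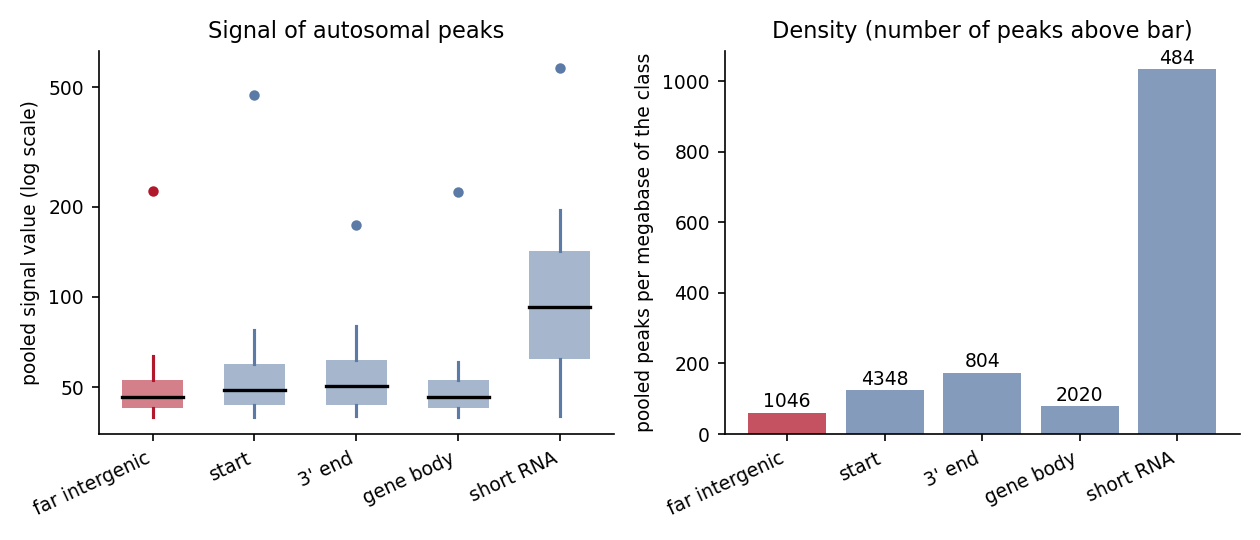
Left, pooled signal value on a log scale for autosomal peaks of each class: the box spans the quartiles, the black line is the median, the upper line ends at the 90th percentile, the lower line at the minimum and the dot is the maximum. Right, peaks per megabase of each class with the number of peaks above the bar; far intergenic peaks (red) had 60.8 per megabase and a median signal of 46.5, close to the 46.5 of gene-body peaks.

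The authors' thresholded list, which keeps pooled peaks that passed a limit on the irreproducible discovery rate, held few far intergenic peaks. It held 17 of them (1.63%, interval 0.9495 to 2.59), against 6.53% of all autosomal peaks. The share was 1.14% among gene-body peaks, 5.70% at starts, 4.98% at 3' ends and 49.6% at short RNA genes. With the peaks at short RNA genes left out, 4.34% of the remaining autosomal peaks outside far intergenic DNA were on the list, and their median signal was 48.3. Since this list is chosen by agreement between replicates, overlap in both is largely a condition of being on it. All 17 far intergenic peaks on the thresholded list overlapped a peak in both replicates, and 14 of them overlapped one of the 2000 strongest in both. Their pooled signals ran from 92.9 to 226 with a median of 129.5, and 15 of them lay in the outer 30% at either end of a chromosome. Those outer parts held 67.6% of all far intergenic peaks and 59.1% of all autosomal peaks.

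Most far intergenic peaks were found in at least 1 replicate's own list, and fewer in both. Counting an overlap of at least 50% of the shorter peak, 793 (75.8%) overlapped a peak of replicate 1, against 78.3% of all autosomal peaks. In replicate 2 it was 649 (62.0%), against 68.7%. Both replicates supported 430 (41.1%, interval 38.1 to 44.2), against 49.4%. The 2000 strongest peaks of both replicates covered 34 (3.25%), against 9.58%. A further 363 (34.7%) were found in replicate 1 alone, 219 (20.9%) in replicate 2 alone and 34 (3.25%) in neither. These counts follow from the shares above and are no separate result. For all autosomal peaks the same groups are set by the 78.3%, 68.7% and 49.4%. Median pooled signal was 52.5 for peaks found in both replicates, 44.0 for replicate 1 alone, 44.5 for replicate 2 alone and 41.8 for neither.

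Support followed signal closely, and at equal signal far intergenic and other peaks lay near each other. The pooled list derives from the alignments of both replicates, so a rise of support with pooled signal is in part built in. Among the strongest 20% of the far intergenic peaks, with signals of at least 55.1, 83.8% were found in both replicates, against 86.6% of other autosomal peaks in that signal range. In the next bands of 20% each the shares were 53.6% against 53.5%, 34.0% against 35.7%, 19.1% against 22.9% and 14.8% against 14.8%. Across the 430 peaks found in both, the replicate signals had a Spearman rho of 0.294, against 0.484 across 3871 other autosomal peaks. These correlations are across peaks, which share their libraries, and the far intergenic peaks span a narrower range of signal.

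**Figure D2:**
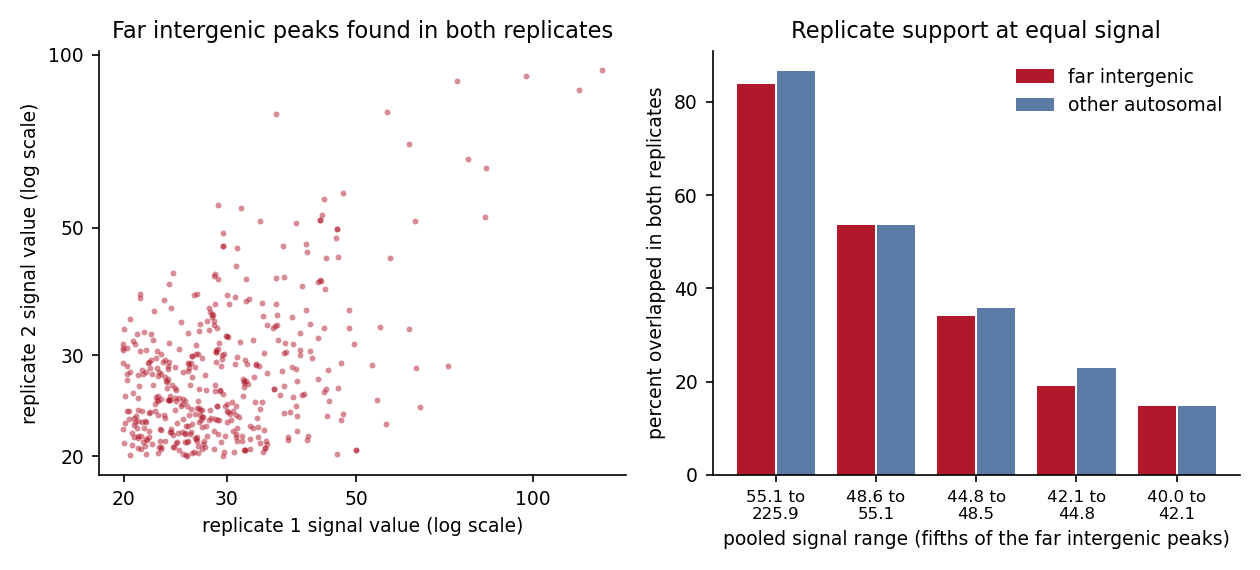
Left, replicate 1 against replicate 2 signal value (both axes log) for the 430 far intergenic peaks found in both replicates, 1 point per pooled peak; most points crowd below 50 in both. Right, percent of far intergenic peaks (red) and of other autosomal peaks (blue) overlapped in both replicates, within the signal range of each 20% of the far intergenic peaks; the shares run from 83.8% and 86.6% in the strongest 20% to 14.8% and 14.8% in the weakest.

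The strongest far intergenic peak lay on chromosome IV (chrIV:11025973-11026402, ce11, pooled signal 226). Its signal was 131 in replicate 1 and 94.1 in replicate 2, which ranked it 43rd and 119th in those lists. Its summit was inside the ncRNA gene F36H1.17 and 76 bp from cel-mir-51, a microRNA gene, between alh-3, of the aldehyde dehydrogenase family, and hrg-5, a heme-responsive gene. The second peak (chrI:852020-852449, signal 206, with 120 and 87.0 in replicates 1 and 2) had no annotated gene within 250 bp and lay 1216 bp from zfr-1, a zinc-finger RNA-binding protein gene. Both of these peaks had a box B match. The third (chrIV:2664836-2665265, signal 171, 74.3 and 89.95 in the replicates) had its summit in the ncRNA genes Y69A2AR.37 and Y69A2AR.38, 1048 bp from Y69A2AR.31. The peak ranked 18th (chrIV:2665602-2666031, signal 92.3) lay in the same gap of 3046 bp.

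Chromosome V held 6 of the 17 far intergenic peaks on the thresholded list. Its strongest (chrV:265118-265547, signal 158.5, 97.3 and 91.99 in the replicates) lay 2974 bp from lgc-26, a ligand-gated ion channel gene, and is the window with the 29-base ends shown above. The next (chrV:15454313-15454742, signal 147, 83.2 and 63.5) had its summit in the pseudogene WBGene00005445 between srw-33 and str-71, both chemoreceptor genes. The peak at chrV:5667314-5667743 (signal 145, 56.3 and 79.5) lay 1443 bp from C14C11.7, and the peak at chrV:3163126-3163555 (signal 142, 77.4 and 65.9) lay 1334 bp from C36C5.14. At chrV:14054999-14055428 (signal 134, 82.9 and 52.3) the nearest gene was F58D12.1. The last of the 6 (chrV:5284259-5284688, signal 94.5) had 28.99 in replicate 1 and 54.8 in replicate 2. Of its 36-base words, 77.6% occurred at more than 1 place in the nuclear genome. A far intergenic peak that overlaps it, chrV:5284583-5285012, had the reverse order, with 43.9 in replicate 1 and 25.85 in replicate 2. Replicate 1 exceeded replicate 2 at 4 of these 6 peaks, but the lists were not scaled to each other.

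The other thresholded members were spread over the remaining autosomes. On chromosome I the second was chrI:2639562-2639991 (signal 129.5), 358 bp from F40E3.3. Chromosome II had chrII:769283-769712 (signal 116), 1055 bp from C08G5.6, and chrII:1477323-1477752 (signal 93.5) in the gap between H17B01.5 and emc-1, a subunit gene of the ER membrane protein complex. Chromosome III had chrIII:2030758-2031187 (signal 114) near dpy-1, chrIII:1744473-1744902 (signal 100.7) near Y46E12A.3 and inside the ncRNA gene Y46E12A.11, and chrIII:11110729-11111158 (signal 92.9) inside the pseudogene WBGene00012975. The signal at the dpy-1 peak was 36.4 in replicate 1 and 79.1 in replicate 2. A far intergenic peak that overlaps it, chrIII:2031122-2031551, had the reverse order, with 64.1 and 24.35. The dpy-1 peak at chrIII:2030758-2031187 lay 1545 bp from a tRNA gene, outside the limit of the rule. Chromosome IV added chrIV:1763451-1763880 (signal 99.7), 2096 bp from Y41D4A.7, and chrIV:4727979-4728408 (signal 95.4), 2881 bp from K08F11.1. Just below the thresholded members came chrIV:4949720-4950149 (signal 91.6), 1400 bp from the chemoreceptor gene str-169, and chrII:2921078-2921507 (signal 90.4), 389 bp from Y110A2AR.1.

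Along the chromosomes, far intergenic peaks were more often in the outer parts than autosomal peaks as a whole. The outer 30% at either end held 707 of them (67.6%, interval 64.7 to 70.4), against 59.1% of all autosomal peaks and 62.8% of the rule-meeting bases. Gene-body peaks had a like share, 67.9%. In the replicates' own lists the share was 65.8% and 64.8% (mean 65.3 ± 0.691, SD, n = 2). Density was 65.4 per megabase of rule-meeting sequence in the outer parts and 52.9 in the middle. With the outer 20% at either end the densities were close, at 62.2 outside and 59.6 inside, and that part held 45.3% of the peaks (interval 42.3 to 48.4), against 44.3% of the rule-meeting bases. On the right of chromosome I (70.9, against 72.0 in its middle) and of chromosome IV (34.8, against 43.0) the outer part was not denser than the middle. Median signal was 46.5 in the outer parts and 46.5 in the middle. The outer 2% at either end held 54 peaks, or 81.5 per megabase. In the strongest 20%, the members nearest the ends included chrV:9903-10332 (signal 70.7), chrIII:24831-25260 (signal 56.0), chrII:15266130-15266559 (signal 67.6), 13076 bp from the right end, and chrV:20908143-20908572 (signal 65.3), 15822 bp from it. On the other ends the nearest were chrI:315994-316423 (signal 57.4), chrI:13888256-13888685 (signal 67.6), chrII:373283-373712, chrIII:13694000-13694429 (signal 58.0), chrIV:541240-541669 (signal 58.6) and chrIV:16845325-16845754 (signal 56.3).

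Density ran over a range among the chromosomes. Chromosome III held 19.2% of the far intergenic peaks, at 79.8 per megabase of rule-meeting sequence, chromosome I had 180 (72.7), chromosome II 210 (66.4), chromosome V 250 (55.4) and chromosome IV 205 (45.1). The right outer part of chromosome IV was the least dense, with 34.8 per megabase. That chromosome carries the large piRNA clusters, whose genes make short germline RNAs bound by a Piwi protein. Within 250 bp of a piRNA gene on chromosome IV there were 41 far intergenic peaks (27.3 per megabase), against 164 elsewhere on it (53.9 per megabase). Median signal was 45.4 near piRNA genes and 45.4 elsewhere on the chromosome.

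**Figure D3:**
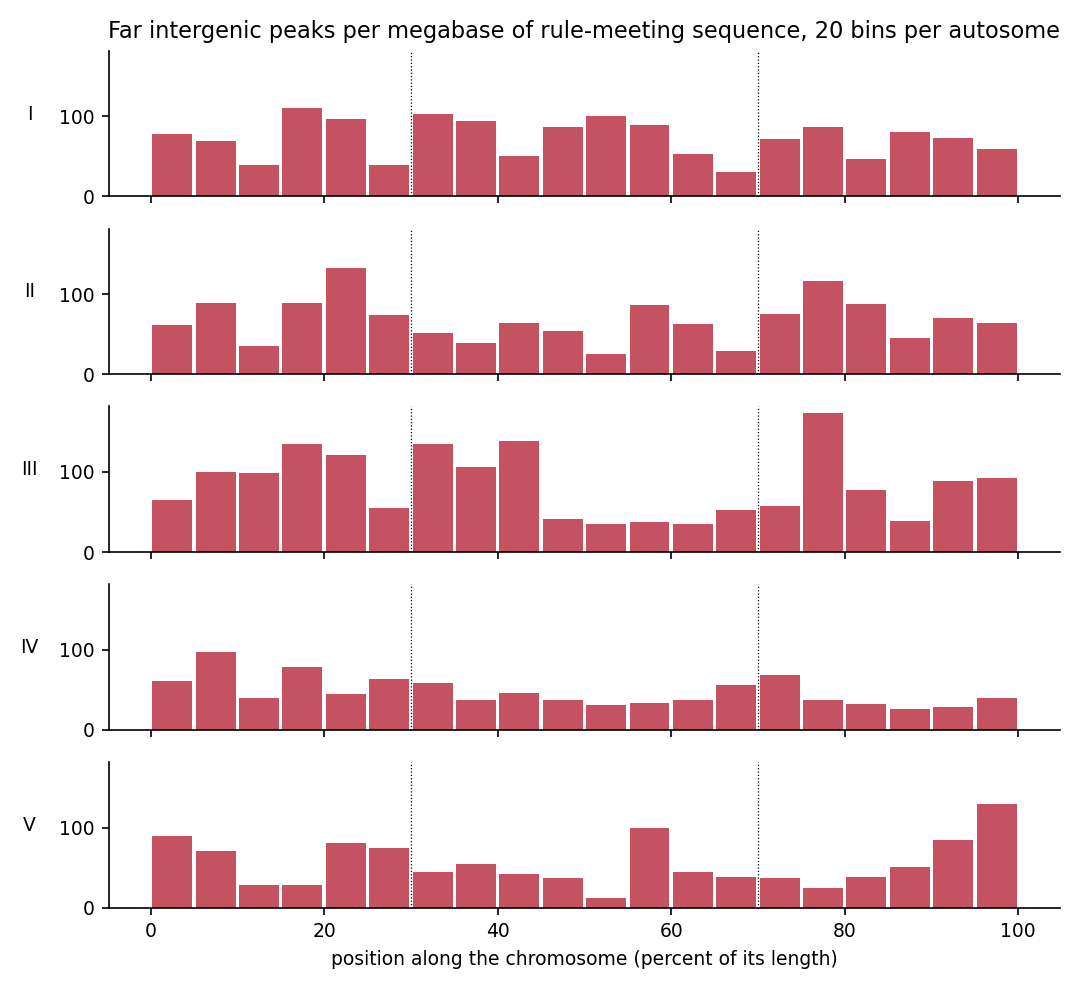
Far intergenic peaks per megabase of rule-meeting sequence in 20 bins along each autosome; the x axis is percent of chromosome length, and dotted lines mark the outer 30% at either end. Density was 65.4 per megabase in the outer parts and 52.9 in the middle over all autosomes, with the lowest outer value, 34.8, at the right of chromosome IV.

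Far intergenic peaks were spread over many gaps between genes. They lay in 822 of the 5375 gaps that held rule-meeting bases, and 650 of these gaps held 1 peak each. The gap around a peak had a median length of 7190 bp, against 7910 bp over the rule-meeting bases. By count, 2 gaps held the most peaks, 6 each. The gap between B0348.10 and egl-8, a phospholipase C gene, on chromosome V is 12078 bp long and its highest signal was 77.6, and that between col-105 and nhr-41 on chromosome IV is 26989 bp long. Per kb of gap these had 0.497 and 0.222 peaks. The gap between W09D10.4 and tat-3 on chromosome III held 5 in 5955 bp, or 0.840 per kb. None of the peaks in these 3 gaps was on the thresholded list. Flanking genes were in tandem at 608 peaks (58.1%, against 53.7% of the rule-meeting bases), divergent at 308 (29.4%, against 32.3%) and convergent at 130 (12.4%, against 13.9%). The median distance to the next summit of any pooled peak was 3708 bp for far intergenic peaks and 2247 bp for other autosomal peaks.

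Density lay between 59.6 and 66.0 peaks per megabase up to 5 kb from protein-coding starts, and the values beyond were lower. The median distance to the nearest start was 2764 bp, against 2833 bp over the rule-meeting bases. Between 1 and 1.5 kb from a start there were 64.7 peaks per megabase (interval 55.7 to 74.8), and between 3 and 5 kb there were 65.7 (58.3 to 73.9). Between 5 and 10 kb there were 52.1 (44.3 to 60.8), and the 27 peaks beyond 10 kb gave 39.3 (25.9 to 57.1). The interval beyond 10 kb lay below that at 3 to 5 kb and overlapped those at 1 to 1.5 kb and at 5 to 10 kb. At the limits of the rule, 105 members up to 250 bp beyond the limit from starts had a median signal of 47.9, and 122 peaks left out within 250 bp on its other side had 46.5. The 59 members within 400 bp of a 3' end had a median of 48.7, and the 89 left out at 200 to 300 bp had 51.2. Only 4 members lay within 350 bp of a short RNA gene (median 56.3), and 5 peaks were left out at 150 to 250 bp (median 46.3).

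**Figure D4:**
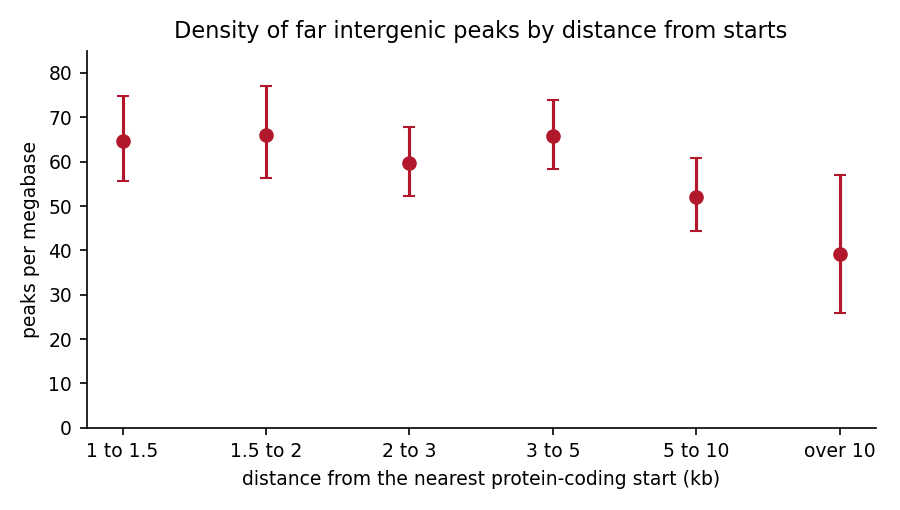
Far intergenic peaks per megabase of rule-meeting sequence by distance from the nearest protein-coding start, in kb; bars are 95% intervals for counting error. The density was 64.7 at 1 to 1.5 kb and 39.3 beyond 10 kb, where the interval is widest.

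The genes next to far intergenic peaks were many and mixed. In all, 897 of 17242 autosomal protein-coding genes were nearest to at least 1 peak. Chemoreceptor genes, a large family of receptors for environmental chemicals, were nearest at 25 peaks (2.39%), against 5.81% of the rule-meeting bases, which is 25.01 peaks per megabase. Nuclear hormone receptor genes were nearest at 26, or 76.2 per megabase, and C-type lectin genes at 12, or 77.8. Genes with the prefixes col, dpy, rol, sqt and bli, which include cuticle collagens, were nearest at 11, or 80.5. All classes were set by symbol prefix, so this group also takes in genes that are not collagens, such as dpy-28. F-box genes were nearest at 11 (40.1 per megabase), neuropeptide and insulin genes at 6, ribosomal protein genes at 4, cytochrome P450 and UDP glucosyltransferase genes at 4, and MATH or BATH genes at 1. Histone genes and major sperm protein genes were nearest at none, over 0.0548% and 0.123% of the rule-meeting bases. Small counts in most classes limit what can be read from these densities.

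Non-coding genes lay near far intergenic summits about as often as near far intergenic DNA. A pseudogene or another non-coding gene lay within 250 bp of 283 summits (27.1%), against 29.9% of the rule-meeting bases. The other 763 summits (72.9%) had none; their median signal was 46.5, and 11 of them were on the thresholded list. The summit lay in a pseudogene at 125 (11.9%, interval 10.1 to 14.1), against 13.3% of the rule-meeting bases. It lay in an ncRNA gene at 35 (3.35%, 2.34 to 4.62), against 1.44% of those bases, and in a long intergenic RNA gene at 17 (1.63%, 0.9495 to 2.59), against 0.845%. Of other autosomal peaks, 3.38% had the summit in an ncRNA gene, near the far intergenic share. The values for those peaks were 0.588% in pseudogenes and 0.1045% in long intergenic RNA genes. Median signal was 53.2 in ncRNA genes, 45.5 in long intergenic RNA genes and 46.7 in pseudogenes. A piRNA gene held 3 summits, against 0.698% of the bases, and a microRNA gene and an antisense RNA gene held 1 each. Any of these non-coding genes held 178 summits (17.0%), against 16.2% of the rule-meeting bases.

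Far intergenic summits had a higher GC content than far intergenic DNA as a whole, and the same median as other peaks. Over 200 bp at the summit, median GC content was 39.0%, against 39.0% at other autosomal peaks and 34.0% in 85627 windows that cover the rule-meeting bases. In both replicates' own lists the median was 37.5%. The share of soft-masked bases had a median of 32.5%, against 26.0% at other autosomal peaks and 37.5% in the windows. Repeated sequence was scarce: 25 far intergenic peaks (2.39%, interval 1.55 to 3.51) had at least 50% of their 36-base words at more than 1 place of the nuclear genome, against 0.927% of other autosomal peaks and 15.2% of the windows. How the authors treated reads that map to several places is not given in the sources used here, and its part in this was not tested. The 25 peaks had a median signal of 55.4, against 46.5 for the other 1021, and 2 of them were on the thresholded list.

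Box B matches were found at 81 far intergenic peaks (7.74%, interval 6.20 to 9.53), against 8.18% of other autosomal peaks and 4.19% of the rule-meeting windows. The sequences from which the letters were picked are among the 81, so the comparisons here include them and are no separate evidence. The same letters were found in 96.1% of 612 annotated nuclear tRNA genes, at 55.2% of peaks at short RNA genes and at 4.95% of peaks at starts. The form GTTCGANNC was at 53 far intergenic peaks (5.07%), against 1.51% of the windows, and GTTCAANNC at 29 (2.77%), against 2.72%. Over all autosomal peaks the 2 forms were at 4.815% and 3.425%. A box A match (GCNNANNGG) 20 to 90 bases ahead of a box B on the same strand was found at 24 (2.29%, interval 1.48 to 3.395). The pair was in 0.235% of the windows and 35.5% of the tRNA genes. Of other autosomal peaks 1.87% had it, with 18.8% at short RNA genes, 0.759% at starts, 0.622% at 3' ends and 0.693% in gene bodies. The box B match lay within 50 bp of the summit at 52 of the 81 (64.2%), against 53.5% of the rule-meeting windows with a match. No non-coding gene lay within 250 bp at 62 of the 81, beside 763 of all 1046 far intergenic peaks. A tRNA pseudogene of the RefSeq annotation lay within 250 bp of 4 of the 81, beside 6 of all 1046 far intergenic peaks (0.574%). The share was 0.392% of other autosomal peaks and 0.150% of the rule-meeting bases.

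Box B matches were most frequent among the strongest far intergenic peaks, as in the sequences printed above. From the strongest to the weakest 20% of peaks, matches were found at 16.2%, 9.09%, 5.74%, 2.87% and 4.78%. Among the 50 strongest it was 13 (26.0%, interval 14.6 to 40.3), and among the 17 on the thresholded list 9 (52.9%, interval 27.8 to 77.0). On the thresholded list matches were also at 47.8% of 23 gene-body peaks and 67.9% of 240 peaks at short RNA genes, against 6.85% of 248 peaks at starts and 10.0% of 40 at 3' ends. The letters were picked from the strongest far intergenic sequences, so the values for the strongest peaks describe those sequences and are no separate evidence. The comparisons below of peaks with and without a match include the same sequences, so they are no separate evidence either. Peaks with a match had a median signal of 51.3, against 46.2 without one. They were found in both replicates at 64.2% with a match and 39.2% without. Median replicate 1 signal was 31.2 with a match and 28.0 without, and median replicate 2 signal 31.6 with and 26.6 without. Of the peaks with a match, 82.7% lay in the outer parts of the chromosomes, against 66.3% of those without. Median GC content was 41.0% with a match and 38.5% without, and its part in the difference was not tested.

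**Figure D5:**
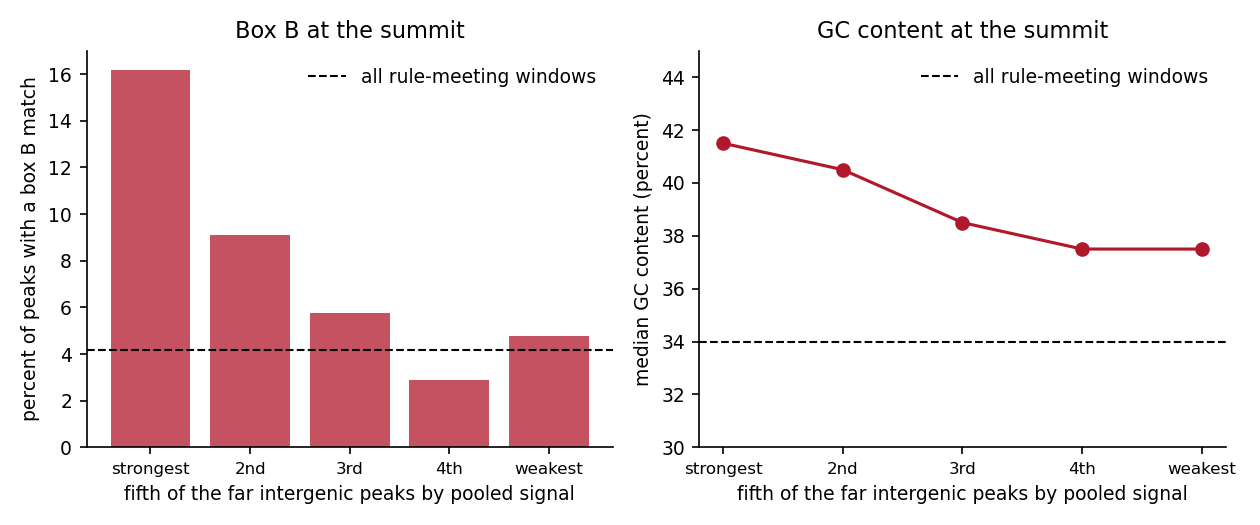
Left, percent of far intergenic peaks with a box B match within 100 bases of the summit, in bands of 20% of the peaks by pooled signal; right, median GC content of 200 bases at the summit in the same bands, on an axis that starts at 30%. Dashed lines are the values over all rule-meeting windows (4.19% and 34.0%); both measures were highest in the strongest band, at 16.2% and 41.5%.

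The remaining motifs were each found at fewer than 10% of the far intergenic peaks. TTAGGC was found at 88 far intergenic peaks (8.41%, interval 6.80 to 10.3), against 6.596% of all autosomal peaks and 5.38% of the windows, and 5 peaks had at least 10 copies. In the strongest 20% it was found at 4.76%, and in the weakest at 8.61%. Against the windows, CGCGCG was found at 3.44% and 1.26%, GAGAGAGA at 3.82% and 1.81%, and CACACACA at 2.87% and 1.46%. The far intergenic share comes first in each pair. Over all autosomal peaks these 3 motifs were found at 3.38%, 2.32% and 1.75%, so the share with CGCGCG was close to that of all peaks. A run of at least 10 A was at 7.27%, against 6.01% of the windows and 5.41% of all autosomal peaks. ATATATAT was at 0.669%, against 1.27% and 0.931%.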

How the data were processed

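Peak lists of REC-8 ChIP-seq were deposited for 2 biological replicates, for both pooled, and as a thresholded list, per the file listings. The unit is the signal value of each peak as deposited by the authors. Read depth is unknown, and the sources used here name no aligner, peak caller or use of the control. The ce11 lists were used. The ce10 lists were not used here. Summits were placed with the Ensembl release 115 annotation of WBcel235, and sequences were read from the RefSeq genome of that build. Where classes met, short RNA genes came first, then starts, 3' ends and gene bodies. Rule-meeting bases were counted base by base. A replicate peak supported a pooled peak when it overlapped at least 50% of the shorter one. Python 3.11.15, numpy 2.4.6, pandas 2.3.3 and scipy 1.17.1 were used, and the steps were tested on simulated peaks. Named peaks were the 20 strongest, the strongest of each autosome, and those nearest either chromosome end among the strongest 20%. The members and lists were chosen with earlier results of these data known, and box letters and the gaps with the most peaks after seeing the values. No test was made, since there is 1 group and peaks are not replicates. The labels cite a separate protocol document for each replicate.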

Additional observations from a re-analysis of the deposited data

How the results depend on the processing

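No paired analysis was possible because there is 1 group. Of 59 alternative values, 36 stayed within the spread between the replicates, the counting interval or, for counts, 1.5 times. With each replicate's list alone, members numbered 1650 to 2109, their share over that of bases was 0.651 to 0.669, and GC content was 37.5% in both. The ratio of shares was 0.557 over 2000 bp from starts and 0.526 over 1000 bp from 3' ends. Replicate support was 45.6% with 1 bp of overlap, 28.4% with summits within 100 bp and 3.25% with the 2000 strongest peaks of each replicate. With only autosomal peaks above the median signal there were 416 members, a ratio of shares of 0.458, a signal ratio of 0.931, support of 69.0%, GC content of 41.0% and 3.85% repeated. The outer 20% held 45.3%. GC content was 40.0% over 100 bp. Repeated sequence was 4.49% with 25-base words and 16.7% with any repeated word. Non-coding genes within 250 bp were at 27.1%. Leaving out peaks at short RNA genes, an alternative chosen after seeing the data, gave a signal ratio of 0.964. The ratio of shares and the signal ratio stayed below 1 under every alternative run for them. The thresholded share lay between 1.38% and 1.73%. Read depth is unknown, so weak peaks cannot be weighed by counts, and 2 replicates give a rough spread. The causes of these shifts were not tested.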
